A study of Mus musculus with 19 samples.

Results

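The genes described here are 9 components of interferon and cytokine signalling measured in hippocampal microglia of mice: the type I interferon receptor chains Ifnar1 and Ifnar2, the signal transducers Stat2 and Stat3, the interferon regulatory factors Irf1, Irf7 and Irf9, and the feedback inhibitors Socs1 and Socs3. They were taken by gene symbol from 2 tables of FPKM (fragments mapped to a gene per kilobase of its transcript, relative to all fragments mapped in the library). Each table lists 23951 genes, and all 9 members were found in both and had a mean of at least 1 FPKM, the level required for testing. Their pattern in these data played no part in the rule, although the set was proposed with earlier results of these data known.

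Flow cytometry for CD11b and CD45 was used to purify the microglia, and RNA was sequenced in 5 groups of 3 libraries. At 3 months, both groups carried Cx3cr1CreER+/-, a Cre recombinase that tamoxifen activates and that is driven from Cx3cr1, a gene used by microglia and by other myeloid cells. One group had floxed alleles of PU.1 besides (labelled PU/1 fl/fl; Cx3cr1CreER+/-) and the other did not. Tamoxifen was given to both groups on 5 consecutive days at a dose of 50 mg/kg, and the brains were collected 1 week afterwards. At 4.5 months, the groups were CK, CK-p25 and CK-p25 PU.1 cKO, where cKO stands for conditional knockout. CK-p25 mice can be induced to express p25, an activator of the kinase Cdk5, in forebrain neurons, which then degenerate, whereas CK mice serve as their controls. All 3 of these groups carried the inducible Cre and received the same tamoxifen course at the induction of p25, and tissue was taken 6 weeks after induction. Whether each library stands for an animal of its own is not given in the labels, so a p-value here reflects variation between libraries, part of which may be technical.

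Type I interferons bind a receptor made of the IFNAR1 and IFNAR2 chains, which activates Janus kinases. These phosphorylate STAT proteins, among them STAT2, which joins IRF9 in a complex that binds interferon-stimulated response elements (ISRE) beside its target genes. IRF7 is itself an interferon-stimulated gene and drives further interferon production, while interferon-gamma acts through gamma-activated sites (GAS) and induces IRF1. STAT3 carries signals of interleukin-6 and interleukin-10 family cytokines, and SOCS1 and SOCS3 are induced by STATs and shut their receptors off again. In the brain, microglia are a main responder to interferons.

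The promoters of 3 members are printed to compare matches to the letters given below. Irf7 had no match, Irf1 had a GAS-like match at the printed start and Socs1 had overlapping ISRE-like matches. A lack of these letters does not show that a gene has no such element. Each printed sequence is the 250 bases before the annotated start, read from RefSeq on build GRCm38.p6. It runs 5′ to 3′ on the strand of the gene, with capitals marking a match. Irf7 is chr7:141266425-141266674 on the minus strand, Irf1 is chr11:53769764-53770013 on the plus strand (the first of 2 annotated starts) and Socs1 is chr16:10785537-10785786 on the minus strand.
Irf7: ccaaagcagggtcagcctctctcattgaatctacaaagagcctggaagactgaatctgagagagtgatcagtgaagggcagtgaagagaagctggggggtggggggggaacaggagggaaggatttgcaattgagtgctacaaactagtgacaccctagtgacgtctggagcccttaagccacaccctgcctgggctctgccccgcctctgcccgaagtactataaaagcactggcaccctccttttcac
Irf1: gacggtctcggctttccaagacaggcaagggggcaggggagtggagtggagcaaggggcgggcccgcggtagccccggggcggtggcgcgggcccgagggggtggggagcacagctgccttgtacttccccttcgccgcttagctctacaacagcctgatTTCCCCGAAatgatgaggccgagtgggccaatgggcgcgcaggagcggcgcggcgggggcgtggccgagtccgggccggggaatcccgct
Socs1: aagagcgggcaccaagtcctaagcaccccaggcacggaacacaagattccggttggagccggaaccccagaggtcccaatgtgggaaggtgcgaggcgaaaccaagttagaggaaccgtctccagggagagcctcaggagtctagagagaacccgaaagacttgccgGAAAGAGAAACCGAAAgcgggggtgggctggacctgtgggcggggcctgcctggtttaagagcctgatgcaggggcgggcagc

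The letters searched were GAAANNGAAA (ISRE-like) and TTCNNNGAA (GAS-like), on both strands, in 250 bases before to 50 after each start. The second reads the same on both strands, and overlapping matches were each counted. Of 32851 promoters in the table, 3.44% held the ISRE-like letters and 8.30% the GAS-like letters. These are shares of promoters, whereas the members are counted as genes, and a gene with 2 starts has 2 chances of a match. All 9 members were found by symbol in the promoter table, with 11 promoters in all. The ISRE-like letters occurred in 2 members, Stat2 and Socs1, the latter with 2 matches that overlap each other. The GAS-like letters occurred in 4 members, Irf1, Ifnar1, Ifnar2 and Socs3. The windows around 3 further matches, shown to compare the letters between members, are chr10:128270266-128270295 for Stat2 (plus strand), chr16:91372559-91372588 for Ifnar2 (plus strand) and chr11:117969501-117969530 for Socs3 (minus strand).
Stat2: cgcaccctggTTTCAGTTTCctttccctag
Ifnar2: tgccaaggccTTCCTGGAAgaagagagtac
Socs3: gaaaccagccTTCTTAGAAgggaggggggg
The match in Stat2 began 222 bases before the start, that in Ifnar2 214 and that in Socs3 154. No match was found in the windows of Irf7, Irf9 and Stat3, which says only that these letters are not there. A match is a description of the sequence and not of binding.

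Spi1, the gene of PU.1, checks the labels. At 4.5 months it measured 256, 230 and 251 FPKM in the CK libraries, 251, 208 and 298 in the CK-p25 libraries and 165, 152 and 224 in the knockout libraries, so the knockout libraries overlapped those of CK-p25. The difference of knockout from CK-p25 was -0.49 ± 0.17 (log2, SE of the limma fit; adjusted p = 0.745), and that from CK was -0.46 ± 0.17 (adjusted p = 0.0751). The latter passed the threshold in 5 of 18 alternative settings: without CK-p25 replicate 3 (adjusted p = 0.0407), without replicate 3 of the knockout group (adjusted p = 0.0221), with a replicate block (adjusted p = 0.0237), with only the compared libraries (adjusted p = 0.0464) and with quantile normalization (-0.85, adjusted p = 0.00495). At 3 months the labels contradict each other: the columns named for PU.1 are tied to the samples titled as controls, and Spi1 was lower in those columns, at 261, 105 and 248 FPKM against 409, 338 and 337. The titles are followed here as "labelled control" and "labelled PU.1 cKO", and the other reading turns the sign of every 3-month difference. The 13 microglia markers summed to between 10940 and 38304 FPKM in all 15 libraries. CK-p25 replicate 3 carried another prefix in its label than the other 8 libraries of its table, which may stand for another sequencing run. It also held fewer mapped fragments, 0.688 of those of CK replicate 1, as estimated from the smallest values of low genes, against 0.883 to 1 for the rest. At 3 months the estimate ran from 0.908 to 1.21 of that of labelled control replicate 1, and the absolute number of reads is unknown.

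Transcripts of Irf7, Stat2, Irf9 and Ifnar2 were higher in CK-p25 than in CK microglia. Irf7 measured 24.7 times its CK mean, Stat2 4.16 times and Irf9 1.77 times, and the receptor chain Ifnar2 1.58 times, a difference that did not pass with quantile normalization. Ifnar1 and Stat3 differed little, and of the feedback inhibitors Socs3 passed the threshold and Socs1 did not. Differences are on the log2(FPKM + 1) scale, which understates the change of low genes, and were tested by limma over all 10894 genes with Benjamini-Hochberg adjustment at a threshold of 0.05, two-sided. Past it were 5 of the 9 members, all higher, against 17.6% of all genes tested in that direction and 13.7% in the other. In 6 of 9 members every CK-p25 library lay above every CK library, which holds for 24.0% of all genes tested, and in none did every one lie below, which holds for 22.5%. The median difference of the 9 members was 0.66 and that of all genes tested was 0.00. In bulk RNA, fewer cells of a type and less RNA per cell cannot be told apart.

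Among the receptor chains, Ifnar2, the chain that binds interferon most tightly, measured 207, 217 and 208 FPKM in the CK libraries, 335, 327 and 339 in the CK-p25 libraries and 305, 283 and 260 in the knockout libraries. The 3 groups did not overlap, with CK lowest and CK-p25 highest. The difference of CK-p25 from CK was 0.66 ± 0.08 (adjusted p = 0.000559), but 0.21 with quantile normalization (adjusted p = 0.112). Ifnar1, the other chain of the receptor, measured 20.1, 23.3 and 20.3 FPKM in the CK libraries, 24.7, 21.7 and 27.3 in the CK-p25 libraries and 23.4, 22.6 and 24.1 in the knockout libraries. Its groups overlapped, and the difference of CK-p25 from CK was 0.20 with a 95% interval from -0.04 to 0.43 (adjusted p = 0.177).

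Stat2, a transducer of type I and type III interferon receptors, measured 5.55, 6.65 and 6.80 FPKM in the CK libraries, 23.3, 19.7 and 36.1 in the CK-p25 libraries and 24.5, 18.9 and 25.1 in the knockout libraries. CK was far below both other groups, which overlapped each other. The difference of CK-p25 from CK was 1.86 ± 0.21 (adjusted p = 0.000458). Stat3 measured 49.3, 44.7 and 45.1 FPKM in the CK libraries, 45.8, 44.3 and 55.0 in the CK-p25 libraries and 46.4, 46.8 and 43.7 in the knockout libraries. Its groups overlapped throughout, and the difference of CK-p25 from CK was 0.05 with an interval from -0.17 to 0.28 (adjusted p = 0.709).

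Irf7 measured 2.59, 5.32 and 5.56 FPKM in the CK libraries, 82.6, 93.7 and 156 in the CK-p25 libraries and 116, 83.8 and 121 in the knockout libraries. The lowest CK-p25 library was thus well above the highest CK library, and CK-p25 and the knockout overlapped. The difference of CK-p25 from CK was 4.34 ± 0.31 (adjusted p = 4.38e-05), and 4.07 without CK-p25 replicate 3. Irf9, the DNA-binding partner of STAT2, measured 41.9, 41.1 and 42.0 FPKM in the CK libraries, 68.2, 65.2 and 88.4 in the CK-p25 libraries and 66.3, 63.2 and 74.5 in the knockout libraries. The CK libraries were close together and below all others, and the difference of CK-p25 from CK was 0.80 ± 0.12 (adjusted p = 0.00184). Irf1, the factor induced by interferon-gamma, measured 43.0, 47.3 and 45.2 FPKM in the CK libraries, 74.7, 49.8 and 98.9 in the CK-p25 libraries and 61.8, 58.1 and 72.7 in the knockout libraries. Every library of CK-p25 was above CK, but replicate 2 only just. The difference of 0.66 ± 0.22 did not pass (adjusted p = 0.0517), whereas without CK-p25 replicate 2 it was 0.91 (adjusted p = 0.00408). It also passed with a pseudocount of 0.1 (adjusted p = 0.0484) and with a filter at 5 FPKM (adjusted p = 0.0438).

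Socs3, which blocks receptors of the gp130 family, measured 32.3, 27.7 and 35.0 FPKM in the CK libraries, 38.8, 56.1 and 83.4 in the CK-p25 libraries and 37.0, 33.7 and 43.1 in the knockout libraries. CK-p25 lay above CK with a wide spread, while the knockout overlapped both. The difference of CK-p25 from CK was 0.83 ± 0.25 (adjusted p = 0.0347). That call was lost in 8 of 18 alternative settings. It was lost with no filter on low genes (adjusted p = 0.0597), with only the compared libraries (adjusted p = 0.0764) and when any 1 of CK replicates 1, 2 or 3 was left out (adjusted p = 0.0824, 0.112 and 0.0650). It was lost too without CK-p25 replicate 2 (adjusted p = 0.0700) and without knockout replicate 1 or 2 (adjusted p = 0.0544 and 0.0508). The estimate without CK-p25 replicate 3 was 0.55 (adjusted p = 0.0428). Socs1, which inhibits Janus kinases directly, was low throughout, at 2.90, 2.55 and 3.09 FPKM in the CK libraries, 4.63, 2.25 and 5.08 in the CK-p25 libraries and 3.26, 3.67 and 5.20 in the knockout libraries. CK-p25 replicate 2 was below every CK library. The difference of CK-p25 from CK was 0.33 ± 0.25 (adjusted p = 0.352), and without that library 0.61 (adjusted p = 0.0380).

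**Figure D1:**
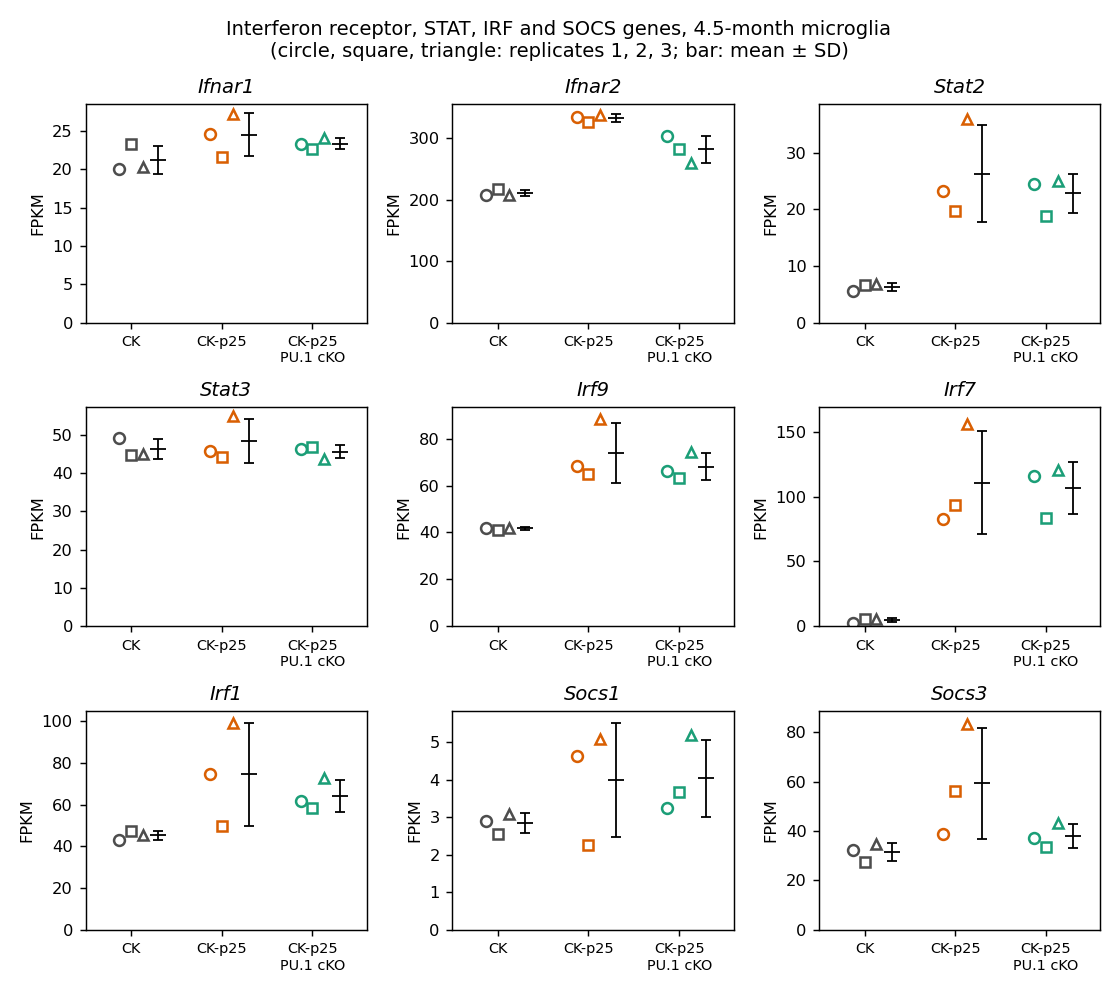
FPKM of the 9 members in each 4.5-month library (vertical axes from 0, one panel per gene), with circles, squares and triangles for replicates 1, 2 and 3 and black bars for the mean ± SD of 3 libraries. Irf7, Stat2, Irf9, Ifnar2 and Irf1 are above CK in every CK-p25 and CK-p25 PU.1 cKO library, Irf1 only just in 1 CK-p25 library. The triangle of CK-p25 is the highest of its group in all 9 panels.

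Within CK-p25 the same libraries were high or low in most members. Replicate 3 was the highest of its group in 9 of 9 members, and replicate 2 the lowest in 7 of 9. The share of all genes tested with that order was not computed. Summed FPKM over all genes was also highest in replicate 3 (650063) and lowest in replicate 2 (573405), with 613925 in replicate 1. Replicate 3 is the library with the other label prefix and fewer fragments. Replicate 2 had the highest summed markers in its group of astrocytes (408 FPKM against 106 and 119), oligodendrocyte lineage (542 against 174 and 114) and neutrophils (819 against 0.0677 and 1.77). Replicate 3 was also the highest of its group in 9 of 12 genes linked to dissociation stress, among them Fos (346 FPKM against 99.6 and 152), Ier2 (277 against 82.6 and 79.5), Dusp1 (324 against 91.3 and 112) and Egr1 (238 against 102 and 96.0), and in Junb (550 against 240 and 211). Between groups, summed microglia markers ran from 30379 to 33204 FPKM in CK and from 19491 to 22098 in CK-p25, where 7 of 13 of these genes fell and 2 rose. Astrocyte markers summed to between 59.2 and 91.5 FPKM in CK and between 106 and 408 in CK-p25 (1 of 8 rose). Monocyte markers summed to between 3.87 and 14.1 FPKM in CK and between 15.9 and 34.0 in CK-p25 (1 of 4 tested rose). Within CK, border macrophage markers summed to 7.61, 284 and 334 FPKM in replicates 1, 2 and 3. Neutrophil markers summed there to 0.145, 120 and 74.8 FPKM. CK replicate 1 was the lowest CK library in 5 of 9 members, Irf7 and Stat2 among them, and the highest in 1. The part of these in the members' differences was not tested. Without CK-p25 replicate 3 the 5 calls all remained.

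CK-p25 PU.1 cKO microglia also differed from CK, in 4 of the 9 members, all higher, against 17.8% of all genes tested in that direction and 13.3% in the other. The 4 were Irf7 at 4.33 ± 0.31 (adjusted p = 4.73e-05), Stat2 at 1.69 ± 0.21 (adjusted p = 0.000713), Irf9 at 0.69 ± 0.12 (adjusted p = 0.00355) and Ifnar2 at 0.42 ± 0.08 (adjusted p = 0.00480). With quantile normalization the Ifnar2 difference was -0.01 (adjusted p = 0.936), so its direction depended on the scaling. Irf1 at 0.49 ± 0.22 did not pass (adjusted p = 0.125), although it did without CK-p25 replicate 2 or 3, libraries that enter here only through the shared spread (adjusted p = 0.0246 and 0.0335). It passed too when only the 6 compared libraries were fitted (adjusted p = 0.00737). Socs1 (0.37), Socs3 (0.25), Ifnar1 (0.13) and Stat3 (-0.02) did not pass either (adjusted p from 0.295 to 0.881). In 6 of 9 members every knockout library was above every CK library, against 29.4% of all genes tested, and in none was every one below, against 29.1%. In the knockout libraries, microglia markers summed to between 17723 and 19891 FPKM, below CK, with 9 of 13 lower and 1 higher past the threshold. Astrocyte markers summed there to between 102 and 271 FPKM (2 of 8 rose) and monocyte markers to between 34.9 and 52.4 (1 of 4 tested rose), both above CK in every library. The part of these in the members' differences was not tested. This comparison and the preceding one share the CK libraries.

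The direct comparison of CK-p25 PU.1 cKO with CK-p25 asks what the conditional PU.1 allele changes in CK-p25 mice, in libraries whose Spi1 values overlapped between the groups. None of the 9 members passed, and of all 10894 genes tested 0% passed in either direction by limma. At an unadjusted p under 0.05 stood 2 of the 9 members and 6.16% of all genes tested (671 genes). One was Ifnar2 at -0.24 ± 0.08 with a 95% interval from -0.42 to -0.06 (adjusted p = 0.745), the only member in which every knockout library was below every CK-p25 library. That separation holds for 4.56% of all genes tested in that direction and for 4.82% in the other. The second was Socs3 at -0.57 ± 0.25 with an interval from -1.14 to -0.01 (adjusted p = 0.745), where the groups overlapped. Irf7 differed by -0.02 with an interval from -0.72 to 0.68, Stat2 by -0.16 (-0.65 to 0.32), and Irf9 by -0.11 (-0.39 to 0.17). Irf1 differed by -0.16 (-0.66 to 0.34), Socs1 by 0.05 (-0.52 to 0.62), Stat3 by -0.08 (-0.30 to 0.15) and Ifnar1 by -0.06 (-0.30 to 0.17). Each interval of these 7 spans 0. The estimate was below 0 in 8 of 9 members, but without CK-p25 replicate 3 it was above 0 for Stat2 (0.08), Stat3 (0.02), Irf1 (0.07), Irf7 (0.26), Irf9 (0.03) and Ifnar1 (0.01). Ifnar2 was then at -0.23 and Socs3 at -0.30.

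**Figure D2:**
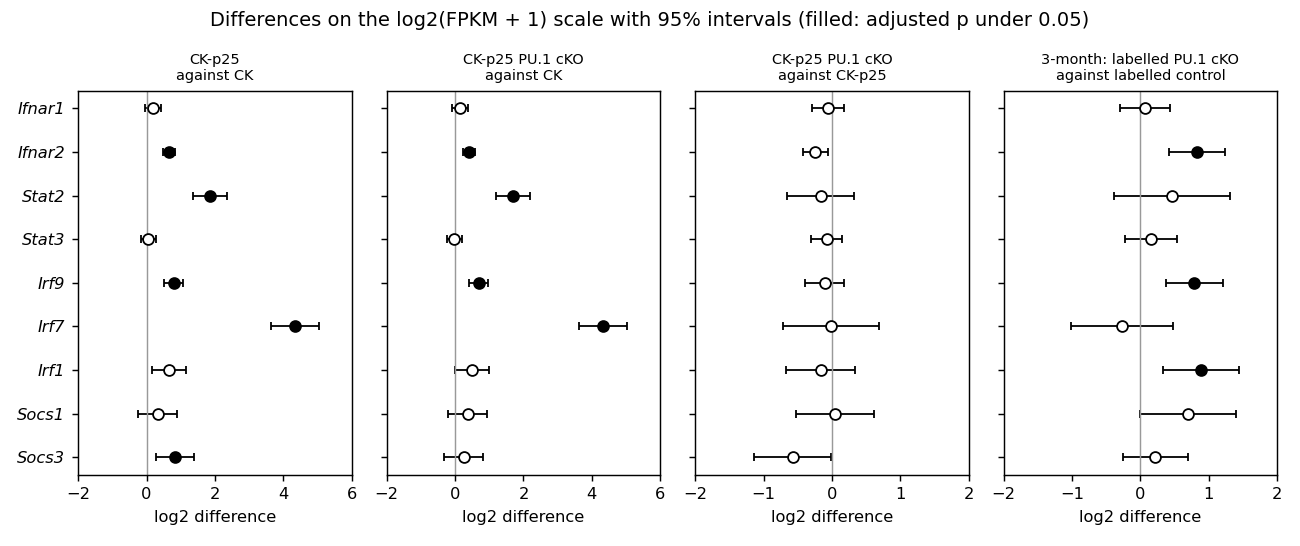
Difference in log2(FPKM + 1) between groups (horizontal axes, first minus second group) for each member in the 4 comparisons, with bars for the 95% interval of the limma fit and filled points for adjusted p under 0.05. Irf7 and Stat2 stand furthest to the right in both comparisons with CK, and no point is filled in the comparison of CK-p25 PU.1 cKO with CK-p25.

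At 3 months, in mice without p25, Ifnar2, Irf1 and Irf9 rose in the libraries labelled PU.1 cKO relative to the labelled controls, and Irf7 and Stat2 did not pass. Past the threshold were 3 of 9 members, all higher, against 12.4% of all 10845 genes tested in that direction and 17.8% in the other. Of all calls, 41.1% were higher as deposited, 51.0% with median centring and 53.0% with quantile normalization, which moved the median of all genes from -0.03 to 0.09, and all 3 members were called higher under each. With the reading of the labels by column name and source name, each of these genes would be lower in the knockout instead.

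Ifnar2 measured 116, 132 and 128 FPKM in the labelled controls and 215, 198 and 258 in the libraries labelled PU.1 cKO. The groups were well apart, by 0.82 ± 0.18 (adjusted p = 0.0131). Irf9 measured 56.4, 44.7 and 49.6 FPKM against 97.9, 76.0 and 88.6, again without overlap, a difference of 0.79 ± 0.18 (adjusted p = 0.0157). Irf1 measured 56.3, 58.7 and 33.8 FPKM against 93.9, 91.4 and 83.6, with replicate 3 of the labelled controls lowest, and differed by 0.88 ± 0.24 (adjusted p = 0.0290). These calls rested on 3 libraries a group. Irf1 lost its call without any 1 of the replicates 1, 2 and 3 labelled PU.1 cKO (adjusted p = 0.0868, 0.0997 and 0.0784). Irf9 lost it without replicate 1 or 3 labelled PU.1 cKO (adjusted p = 0.0608 and 0.0670), and Ifnar2 without labelled control replicate 1 (adjusted p = 0.0557) or replicate 3 labelled PU.1 cKO (adjusted p = 0.0676).

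Irf7 measured 23.6, 26.4 and 17.5 FPKM in the labelled controls and 19.3, 11.3 and 27.4 in the libraries labelled PU.1 cKO. The groups overlapped, and the difference was -0.27 with an interval from -1.02 to 0.48 (adjusted p = 0.539), or 0.05 without replicate 2 labelled PU.1 cKO. Stat2 measured 6.62, 17.8 and 6.36 FPKM against 11.7, 14.2 and 13.2, a difference of 0.46 ± 0.36 (adjusted p = 0.358). Labelled control replicate 2 stood above the whole other group, and without it the difference was 0.90 (adjusted p = 0.00763). That library also had the lowest Spi1 and the highest summed border macrophage markers, 1629 FPKM against 525 and 682 in its group.

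Socs1 measured 2.18, 1.33 and 2.25 FPKM in the labelled controls and 4.98, 4.25 and 2.26 in the libraries labelled PU.1 cKO. The groups all but touched at 2.25 and 2.26, and the difference of 0.70 ± 0.30 did not pass (adjusted p = 0.114). Socs3 measured 46.5, 53.2 and 47.5 FPKM against 74.6, 49.7 and 50.0, where 1 library was high, with a difference of 0.22 (adjusted p = 0.436). That library, replicate 1 labelled PU.1 cKO, was also the highest of its group in 11 of 12 genes linked to dissociation stress. Stat3 measured 58.2, 61.4 and 50.2 FPKM against 64.5, 57.9 and 66.1 and differed by 0.15 (adjusted p = 0.497). Ifnar1 measured 22.9, 26.5 and 24.6 FPKM against 27.8, 23.8 and 26.0 and differed by 0.07 (adjusted p = 0.764). In 4 of 9 members every library labelled PU.1 cKO was above every labelled control, against 21.9% of all genes tested, and in none was every one below, against 26.9%.

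**Figure D3:**
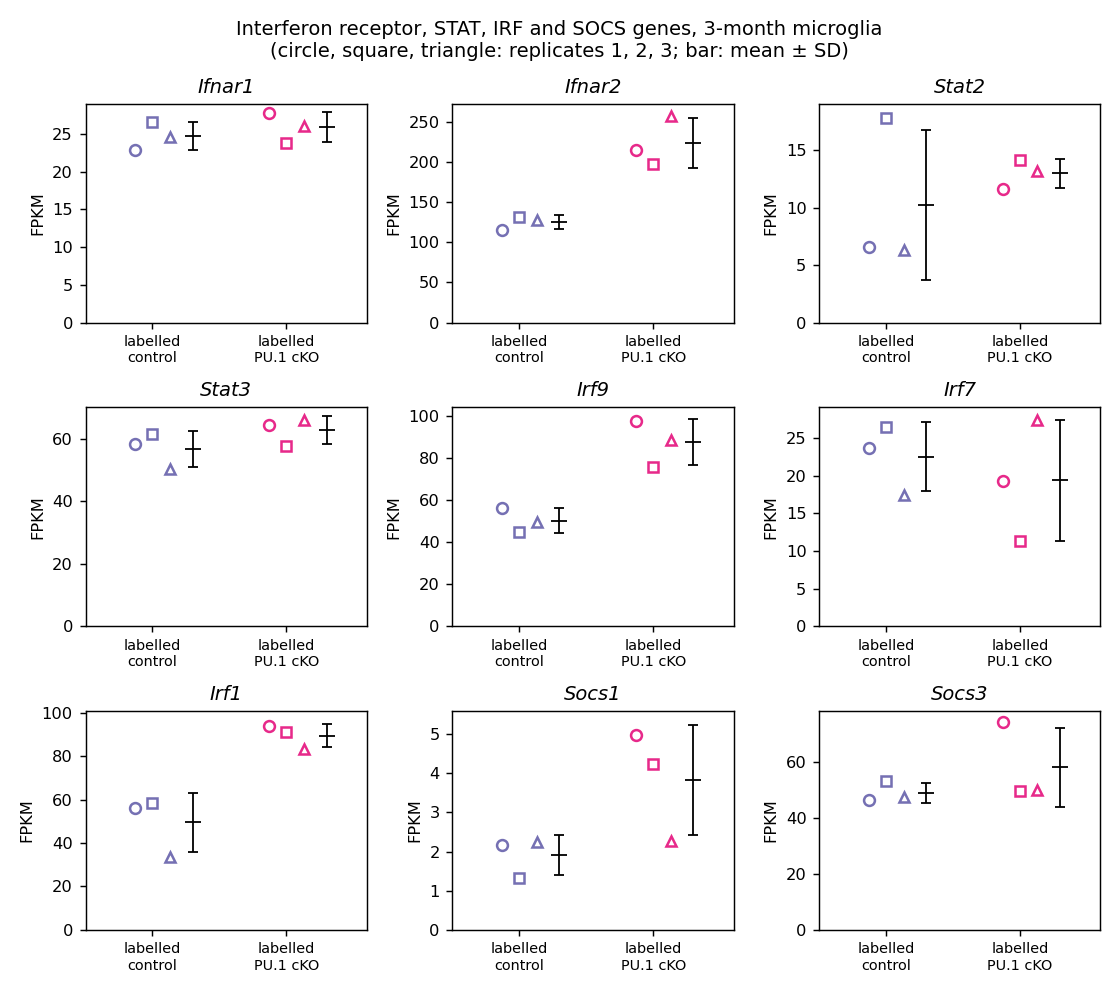
FPKM of the 9 members in each 3-month library (vertical axes from 0, one panel per gene), with circles, squares and triangles for replicates 1, 2 and 3 and black bars for the mean ± SD of 3 libraries. Ifnar2, Irf9 and Irf1 are separated between the groups, whereas Irf7 overlaps and Stat2 has 1 high labelled control.

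The 3-month groups also differed in cell markers. Of 13 microglia markers 10 rose in the libraries labelled PU.1 cKO and none fell, and their sum ran from 10940 to 18322 FPKM in the labelled controls and from 32756 to 38304 in the others. Of 7 border macrophage markers 4 fell, with sums from 525 to 1629 FPKM in the labelled controls and from 311 to 375 in the others, and none was at 0. Neutrophil markers summed to 14742 FPKM in labelled control replicate 1 and to between 45.9 and 334 in the other 5 libraries. Monocyte markers summed to between 42.6 and 233 FPKM in the labelled controls and between 6.62 and 33.3 in the others. Lymphocyte markers summed to between 19.8 and 23.8 FPKM in the labelled controls and between 54.5 and 69.8 in the others (1 of 2 tested rose), and astrocyte markers to between 19.6 and 47.4 and between 76.3 and 80.8 (1 of 5 tested rose). The part of these in the members' differences was not tested.

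Levels of different genes can be set side by side, since FPKM is scaled to length. In all 5 groups Ifnar2 had the highest level of the 9 and its libraries overlapped those of no other member, while Socs1 had the lowest mean. In CK the order after Ifnar2 was Stat3, Irf1, Irf9, Socs3, Ifnar1, Stat2, Irf7 and Socs1 by mean FPKM. Neighbours overlapped there between Stat3 and Irf1, between Stat2 and Irf7 and between Irf7 and Socs1. In both groups with p25, Irf7 stood next to Ifnar2, and in CK-p25 it overlapped Irf1. In the 3-month groups Irf7 stood below Ifnar1 and above Stat2 and overlapped both. Tables were normalized separately, so levels at 3 and 4.5 months are not tested against each other.

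The genes most like a member were found by the mean absolute difference of log2 profiles, each centred on its own mean, over the 9 libraries of 4.5 months. For Irf7 they were Zbp1, a sensor of nucleic acids (0.13), Oasl2 (0.14) and Oasl1 (0.20), both of the oligoadenylate synthetase-like family. Only 2 genes lay within 0.2 of Irf7, against 39 for Stat2 and 94 for Socs3. Nearest to Stat2 were Arl5c (0.09), H2-M3, a class I-like antigen-presenting molecule (0.10), and Phf11d (0.11). Nearest to Socs3 were Osm, the gp130 cytokine oncostatin M (0.10), Leprel4 (0.11) and Ccdc86 (0.12). For Irf9 they were Sass6, Rasa4 and Ethe1, for Ifnar2 Galk2, Gnptg and Dcaf11, for Irf1 Il11ra1, Nudt9 and BC017158, and for Socs1 Gsdmd, Clk4 and Icam1. Within 0.2 lay 1068 genes for Irf9, 1828 for Ifnar2, 598 for Irf1 and 346 for Socs1. The genes named for these members are thus a few of many. Flat members had the most neighbours, with 4916 genes within 0.2 of Stat3 and 4400 of Ifnar1. Their nearest, Marc2 and Glyr1, are thus 2 of very many.

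Upstream of the members, interferon genes themselves were almost absent. Of 20 interferon ligand genes in the tables, 15 were listed at 0 in every 4.5-month library and 18 in every 3-month library. The one with a mean of at least 1 FPKM was Ifnb1, the gene of interferon-beta, at 4.5 months. It was listed at 0 in all 3 CK libraries, at 0.0856, 1.56 and 5.68 FPKM in CK-p25 and at 0.730, 0.266 and 4.87 in the knockout libraries. The spread within groups was wide, and it did not pass against CK (adjusted p = 0.177 for CK-p25). An FPKM of 0 does not show that a gene is silent.

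Beside the list counts below stand the shares of all genes tested, 17.6% called higher and 13.7% lower in CK-p25 against CK. At 3 months these shares were 12.4% and 17.8%. Ifngr1, the ligand-binding chain for interferon-gamma, is among the other receptor chains. It measured 966, 829 and 715 FPKM in CK and 516, 428 and 478 in CK-p25. It thus fell, by 0.81 on the log2 scale (SE 0.13, adjusted p = 0.00232). It was at 484, 434 and 511 FPKM in the knockout, also lower than CK (-0.80, adjusted p = 0.00240). Its partner chain Ifngr2 (0.11) and the shared chain Il10rb (0.07) did not pass in CK-p25. At 3 months Ifngr1 rose by 1.50 (adjusted p = 0.00310) and Il10rb by 1.01 (adjusted p = 0.00749) in the libraries labelled PU.1 cKO.

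Of 4 Janus kinases 2 rose in CK-p25: Jak3 by 0.87 (adjusted p = 0.000354) and Tyk2, which sits on IFNAR1, by 0.26 (adjusted p = 0.0398). The Tyk2 call was lost in 9 of 18 alternative settings, 7 of which leave out 1 library or fit only the compared ones, with adjusted p up to 0.122. Jak1 (-0.03) and Jak2 (0.20) did not pass. At 3 months none of the 4 passed.

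Of 3 other STATs tested in CK-p25, Stat5b, a transducer of growth hormone and cytokine receptors, fell by 0.43 (adjusted p = 0.0316). That call was lost in 6 of 18 settings, among them without any 1 CK library or without knockout replicate 1 (adjusted p up to 0.0977). Stat5a (-0.19) and Stat6 (0.13) did not pass. At 3 months Stat6, the transducer of interleukin-4, rose by 0.51 in the libraries labelled PU.1 cKO (adjusted p = 0.0423). That call was lost in 8 of 14 settings, among them without labelled control replicate 1 or 3 or any 1 library labelled PU.1 cKO (adjusted p up to 0.134).

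Of 5 other interferon regulatory factors tested in CK-p25, 2 fell and none rose. Irf5, a factor of Toll-like receptor signalling, fell by 0.51 (adjusted p = 0.0137), from 249, 235 and 241 FPKM in CK to 171, 142 and 201. Irf4 fell by 1.05 (adjusted p = 0.00786) and was near the floor, at a mean of 2.13 FPKM in CK and 0.493 in CK-p25. Irf8, the factor that pairs with PU.1 in microglia, measured 241, 205 and 213 FPKM in CK and 284, 244 and 425 in CK-p25, which did not pass (0.49, adjusted p = 0.0793). At 3 months Irf2 rose by 0.95 (adjusted p = 0.00501) and Irf5 by 0.86 (adjusted p = 0.0303) in the libraries labelled PU.1 cKO. The Irf5 call there was lost without labelled control replicate 1 or any 1 library labelled PU.1 cKO, with adjusted p up to 0.0989.

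In the SOCS family outside the members, Socs2, an inhibitor of growth hormone signalling, measured 0.296, 0.532 and 0.331 FPKM in the CK libraries, 2.02, 1.92 and 3.49 in the CK-p25 libraries and 1.55, 2.17 and 1.58 in the knockout libraries. It rose by 1.30 (adjusted p = 0.00237) in CK-p25 from a level near 0. Socs6 rose by 0.50 (adjusted p = 0.0213) and Socs5 fell by 0.72 (adjusted p = 0.0376). Socs6 lost its call without CK replicate 2 or 3 (adjusted p up to 0.0769). Socs5 lost it in 8 of 17 settings, among them without any 1 CK or any 1 knockout library (adjusted p up to 0.116). At 3 months Socs2 was lower by 2.47 in the libraries labelled PU.1 cKO: it measured 5.27, 4.02 and 9.01 FPKM in the labelled controls and 0.271, 0.0607 and 0.379 in the others (-2.47, adjusted p = 0.00192).

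Of 9 other negative regulators 2 rose and 1 fell in CK-p25, or 1 and 2 with quantile normalization. Usp18, which is itself interferon-induced and blocks IFNAR2, measured 4.59, 4.88 and 7.09 FPKM in the CK libraries, 88.5, 85.6 and 225 in the CK-p25 libraries and 107, 73.8 and 103 in the knockout libraries. Its difference of 4.23 ± 0.36 (adjusted p = 0.000111) stood beside 4.34 for Irf7. Ptpn6, the phosphatase SHP-1, rose by 0.93 (adjusted p = 0.00494), but by 0.48 without a call under quantile normalization (adjusted p = 0.0696), and Pias3, an inhibitor of STAT3, fell by 0.70 (adjusted p = 0.000870).

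Of 9 tested gp130 and interleukin-10 family cytokines and receptors, which signal through STAT3, 3 rose and 4 fell in CK-p25, or 3 and 6 with quantile normalization. Osm rose by 0.99 (adjusted p = 0.00868), from 10.5, 9.05 and 11.0 FPKM in CK to 15.2, 20.4 and 30.2, with replicate 1 lowest and replicate 3 highest as for Socs3. In the knockout it measured 13.6, 14.6 and 15.0 FPKM. Il6 fell by 1.58 (adjusted p = 0.00105), from 7.83, 7.04 and 8.73 FPKM in CK to 1.76, 1.47 and 2.81, and was at 0.526, 0.284 and 0.969 in the knockout. Its receptor Il6ra fell by 0.91 (adjusted p = 0.00441). At 3 months 5 of 9 rose and none fell in the libraries labelled PU.1 cKO, among them Il6ra, at 30.7, 22.8 and 29.9 FPKM against 112, 111 and 91.6 (1.89, adjusted p = 0.000750).

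Downstream, 18 of 20 interferon-stimulated genes rose in CK-p25 and none fell, with a median of 2.90. Ifi27l2a went from 27.6, 38.7 and 40.5 FPKM in CK to 822, 654 and 706, a difference of 4.33 (adjusted p = 5.27e-06). Oasl2 differed by 4.27 (adjusted p = 1.77e-05) and Oasl1 by 4.16 (adjusted p = 8.35e-05). The remaining 2, Mx2 (1.00) and Ifi44 (2.15), did not pass. In CK-p25 PU.1 cKO against CK 18 of 20 rose as well, with a median of 3.16. Against CK-p25 none passed, and the median was -0.02. At 3 months 1 of 19 rose and 4 fell in the libraries labelled PU.1 cKO, with a median of -0.53. Of all genes tested at that age, 12.4% were called higher and 17.8% lower. Among the 4, Oas1a lost its call in 7 of 14 settings (adjusted p up to 0.142) and Rsad2 in 2 of 13 (adjusted p up to 0.0634). The riser was Rtp4 (1.01, adjusted p = 0.0124), and Ifi27l2a fell by 2.25 (adjusted p = 0.00481), from 151, 247 and 274 FPKM to 41.6, 29.5 and 72.7.

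Of 8 tested genes linked to interferon-gamma 6 rose in CK-p25. Cxcl10, a chemokine for T cells, went from 3.09, 2.55 and 7.63 FPKM in CK to 91.1, 80.2 and 171, a difference of 4.44 (adjusted p = 0.000212). Cd274, the immune checkpoint ligand PD-L1, differed by 2.41 (adjusted p = 2.93e-06), and Gbp2, a guanylate-binding protein, by 2.41 (adjusted p = 0.000985). At 3 months Cxcl10 was at 28.2, 40.2 and 56.3 FPKM in the labelled controls and at 1.69, 2.91 and 6.54 in the others (-3.25, adjusted p = 0.00188).

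Of 10 genes linked to STAT3, 2 rose and 1 fell in CK-p25, or 2 and 4 with quantile normalization, while Stat3 itself did not pass. Of all genes tested in CK-p25 against CK, 17.6% were called higher and 13.7% lower. The count of risers here and among the stress genes below stands near that share. Hif1a, the hypoxia-inducible factor, went from 46.6, 48.3 and 39.9 FPKM to 219, 243 and 153 (2.14, adjusted p = 0.000307), and Bcl3, a cofactor of NF-kB, rose by 1.74 (adjusted p = 0.000125). Cebpd, a factor of acute-phase responses, fell by 1.51 (adjusted p = 0.000108). Genes linked to dissociation stress, several of which are also early targets of cytokines, rose in 2 of 11 tested cases, Atf3 by 2.34 (adjusted p = 0.000238) and Ier3 by 0.78 (adjusted p = 0.0193, or 0.0644 without CK replicate 1). Their part in the members' differences was not tested.

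**Figure D4:**
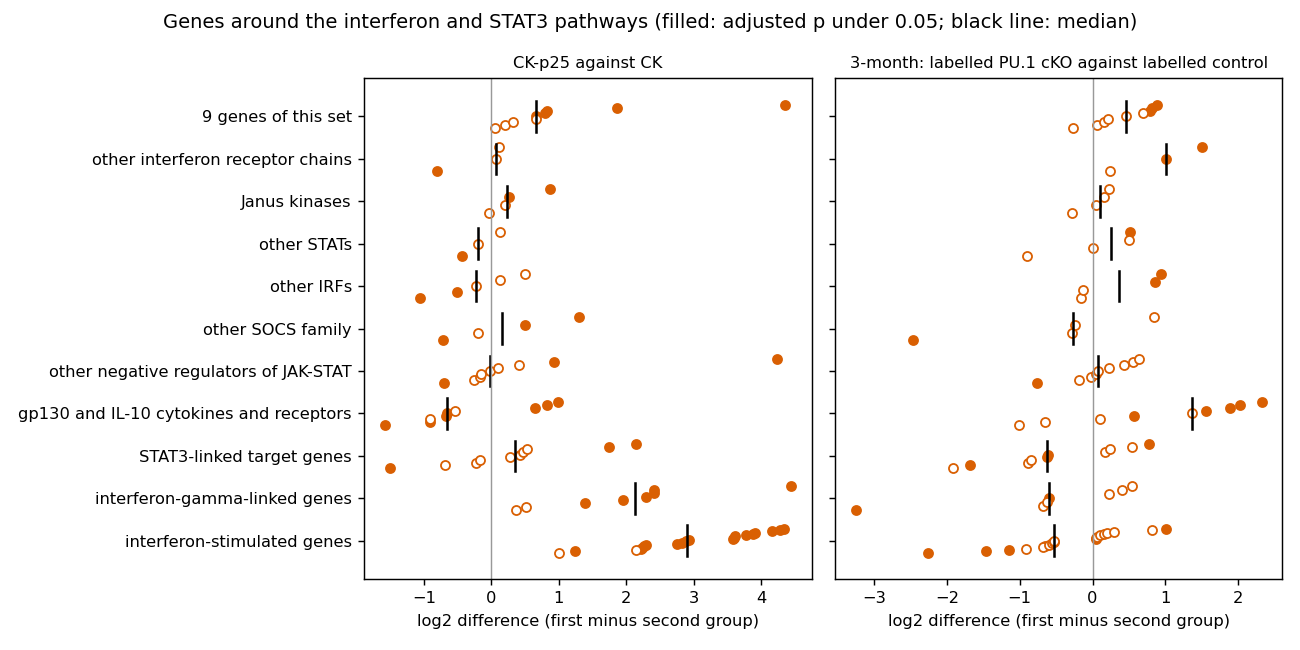
Difference in log2(FPKM + 1) (horizontal axes) for the 9 members and for each tested gene of 10 lists around the interferon and STAT3 pathways, in CK-p25 against CK (left) and at 3 months (right), with filled points for adjusted p under 0.05 and a black line at the median of a list. On the left the interferon-stimulated genes have a median of 2.90 with 18 of 20 filled, and on the right a median of -0.53 with 5 of 19 filled.

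The library kits do not keep the strand of a read, and in the gene table Stat2 overlaps Apof, Stat3 overlaps Gm46295 and Ifnar2 overlaps Gm36587, so reads there cannot be told apart.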

How the data were processed

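RNA of sorted hippocampal microglia was sequenced after low-input full-length cDNA synthesis and tagmentation, per the labels' protocols. The authors deposited FPKM values, one table for 6 libraries at 3 months and one for 9 at 4.5 months. TopHat, Bowtie, Cufflinks 2.0.0 and build mm9 are named in the submitters' processing notes. Since FPKM are not counts, count models were not used. Columns were matched to samples by the description in the labels.

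Values were analysed as log2(FPKM + 1) for genes averaging 1 FPKM or more in a table, with limma 3.58.1 in R 4.3.3 (mean-variance trend, Benjamini-Hochberg adjustment, threshold 0.05). The 6 libraries of 3 months were fitted together, and the 9 of 4.5 months in 1 fit. The fit was tested on simulated data. Members and gene lists were chosen with earlier results of these data known. All 9 members are named, Spi1 as a check, every gene of a list of up to 5 members or its count, and otherwise up to 3 genes past the threshold with the largest differences of CK-p25 from CK. Further genes were named after their values were seen. No sequence of the mm9 build was used; promoters come from RefSeq on GRCm38.p6. The 4 chromatin samples were not analysed here. One gene of the pathway is not reported here.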

Additional observations from a re-analysis of the deposited data

Results flagged for a closer look

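The Ifnar2 values of the knockout and its comparison group were separated in opposite directions at the 2 ages, although only the 3-month difference passed the threshold. It was higher by 0.82 (log2) in the 3-month libraries labelled PU.1 cKO than in the labelled controls, and its difference was -0.24 in CK-p25 PU.1 cKO against CK-p25 (adjusted p = 0.745 by limma, where no gene passed), with every library of a group on one side in both. The difference between the ages was not tested, since the tables were normalized separately, and with the other reading of the 3-month labels both would be negative.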

How the results depend on the processing

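Alternatives were other pseudocounts and filters, median centring, quantile normalization, no variance trend, a replicate block, only the compared libraries, and each library left out. No member was called lower in any comparison or setting. The members called numbered 4 to 6 in CK-p25 against CK, 3 to 5 in CK-p25 PU.1 cKO against CK and 0 in every setting for CK-p25 PU.1 cKO against CK-p25. At 3 months they numbered 0 to 4 when a library was left out, with 1 without replicate 1 and 0 without replicate 3 labelled PU.1 cKO, and 3 in the other settings.

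Irf7, Stat2 and Irf9 kept their calls in all 18 alternatives of both comparisons with CK. Quantile normalization turned uncalled signs for Stat3 (-0.092) and Spi1 (-0.39) in CK-p25 against CK and for Irf7 (0.0056) against CK-p25, and took Ifnar2 in CK-p25 PU.1 cKO against CK to -0.012; it also moved the share of higher calls from 56.3% to 45.6% in CK-p25 against CK and from 57.2% to 45.9% in CK-p25 PU.1 cKO against CK. Summed FPKM as deposited ran from 475007 to 500482 in CK, from 573405 to 650063 in CK-p25 and from 545930 to 601177 in the knockout. The part of these totals in the shifts under quantile normalization was not tested. Leaving out 1 library turned other signs: the lowest and highest values were -0.55 and 0.052 for Irf7 at 3 months, -0.040 and 0.11 for Stat3 and -0.10 and 0.16 for Spi1 in CK-p25 against CK, and -0.049 and 0.021 for Stat3 in CK-p25 PU.1 cKO against CK. Against CK-p25 they were -0.34 and 0.077 for Stat2, -0.14 and 0.017 for Stat3, -0.42 and 0.066 for Irf1, -0.20 and 0.26 for Irf7, -0.19 and 0.025 for Irf9, -0.15 and 0.014 for Ifnar1 and -0.23 and 0.22 for Socs1. Over all genes at 3 months, 1344 were called higher and 1925 lower, against 805 and 1279 without labelled control replicate 1 and 763 and 1314, 580 and 960, and 652 and 1097 without replicates 1, 2 and 3 labelled PU.1 cKO. For CK-p25 PU.1 cKO against CK-p25 the call of 0 genes became 12 higher and 13 lower, none of them a member, without knockout replicate 3, and 5 or fewer in each other setting.

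Whether the replicate numbers pair the libraries is not settled by the values. Deviations of same-numbered libraries correlated between -0.05 and 0.17 at 3 months (2 of 3 over 0.1) and between -0.02 and 0.13 at 4.5 months (3 of 9 over 0.1). Those of differently numbered libraries correlated between -0.26 and 0.12 at 3 months (2 of 6 over 0.1) and between -0.22 and 0.15 at 4.5 months (2 of 18 over 0.1). Of 15 libraries, 8 correlated best with their own number. With the replicate block, 6 members were called in CK-p25 against CK (Irf1 added, adjusted p = 0.0426), and 3, 4 and 0 in the other comparisons, as without it. Reads per library are unknown, which leaves the precision of the low members, Socs1 and Irf7 in CK, to the spread between 3 libraries.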
